A study of Saccharomyces cerevisiae with 16 samples.

Results

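The subject of this report is the early response of budding yeast to CaCl2, measured as the change in every annotated gene over the first 10 minutes of CaCl2 in control cells. It was taken as the ET 10 min libraries set against the ET 0 min libraries. Every gene of the count table that passed a filter on low counts was tested. Enough counts in a single group could pass a gene, so the filter was not blind to a change in genes with few counts. The subject and the gene lists used below were chosen with earlier results of these data known. These are 4 of the 16 libraries of the series. All cells were strain YJB622 of the BY4741 background, of mating type MATa, with the alleles ura3Δ0, leu2Δ0, his3Δ0 and met15Δ0. *CRZ1* was deleted (crz1Δ::KanMx), *HOG1* was deleted (hog1Δ::LEU2) and the TF Hcm1 was tagged (Hcm1-3HA-HIS3). The cells were growing asynchronously in synthetic medium whose nitrogen source was ammonium chloride. A 15-minute pre-treatment was given, with ET buffer or, in the other arm of the study, with FK506 at 1 μg/ml, and cells then received 200 mM CaCl2 and were sampled at 0, 10, 30 and 60 minutes. The ET 10 min group had received ET buffer and 10 minutes of CaCl2, and the ET 0 min group ET buffer alone, with 2 replicate time courses of each. The *crz1* and *hog1* deletions were carried by every group, the 0 min group included, so the libraries hold no cells with either gene and cannot show what either deletion does. A single strain was used. The series holds no 10 min sample without CaCl2 and none with another salt. Calcium, the osmotic load and the added time in buffer therefore cannot be told apart.

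In yeast, a rise in cytosolic calcium activates calcineurin (CN), a phosphatase whose best known target is the TF Crz1, which is absent here. FK506 blocks CN. A salt such as CaCl2 is also an osmotic load, which cells normally meet through the MAPK Hog1, likewise absent here, and many stresses acting through the TFs Msn2 and Msn4 raise a shared set of stress genes while genes for building ribosomes are repressed.

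Of 7126 features in the table, 6206 were tested, and the 4 libraries held 11653988 to 11970166 counts each. *HOG1* had 0 counts in all 16 libraries, and *CRZ1* had 0 in 14 libraries and 1 count in each of the other two, one of them an ET 10 min library. The mating type was checked on its marker genes: 7 a-cell markers summed to 0.267% and 0.278% of counts at 10 min, against 0.291% and 0.295% at 0 min, and 4 α-cell markers to 0.00927% and 0.00876% at 10 min, against 0.0102% and 0.0100% at 0 min. Levels below are CPM (counts per 1000000 counts of the library) scaled by TMM, a normalization that offsets changes in a few abundant RNAs, and changes are log2 values of 10 min over 0 min with their standard errors (SE).

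Within 10 minutes, 3628 genes (58.5% of those tested) passed an adjusted p of 0.05 in limma, a linear model fitted across all genes. Of these, 1652 (26.6%) rose and 1976 (31.8%) fell. Such changes are relative to the other genes of a library, so a shift shared by all RNA would not be seen. Which direction held more genes depended on the scaling, since with raw library totals 1937 rose and 1679 fell. Of the called genes, 48.3% moved by less than 0.5 on the log2 scale, and the median over all genes tested was −0.03. A change of at least 1 was reached by 353 genes that rose (5.69%) and 390 that fell (6.28%), and a change of at least 2 by 86 that rose (1.39%) and 64 that fell (1.03%). In the 4 libraries, 2326 genes (37.5%) had both 10 min values above both 0 min values and 2639 (42.5%) had both below.

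**Figure D1:**
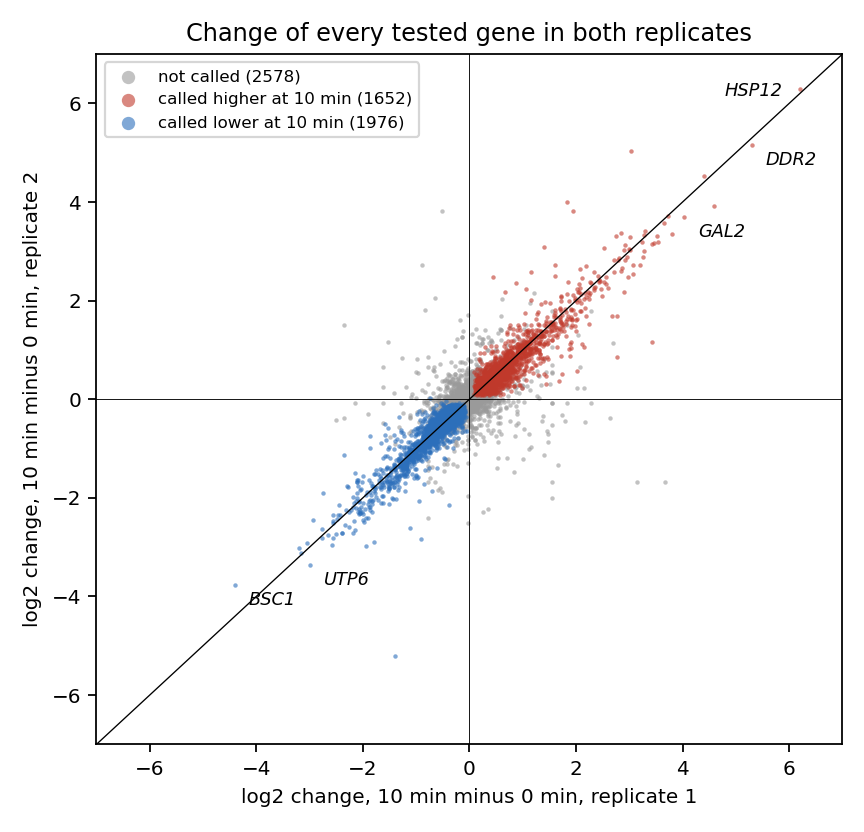
The change of each of the 6206 tested genes is plotted for replicate 1 (x axis) and replicate 2 (y axis), both as log2 of 10 min over 0 min; red points are the 1652 genes that rose, blue the 1976 that fell and grey those not called. *BSC1* lies at the lower left, with a log2 change of −4.10, and *HSP12* at the upper right, with 6.25.

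The sequences upstream of 4 genes show the elements that recur below. The windows run from 400 to 101 bases before the annotated start of the gene, 300 bases each, read 5′ to 3′ on the gene's own strand from the RefSeq copy of the R64 assembly, and capitals mark matches on either strand. *HSP12*, the gene with the highest rise, is shown for the stress response element AGGGG, the site of Msn2 and Msn4. *BTN2* is shown for the heat shock element, the site of Hsf1, in which TTC and GAA alternate, and of which it has 2 matches that overlap by 8 bases. *FUS1* is shown for the pheromone response element TGAAACA, the site of Ste12, and *CGR1*, a ribosome assembly gene, for PAC (GATGAG) and RRPE (AAAATTTT), elements found upstream of ribosome assembly genes.
HSP12, chrVI:106856-107155, plus strand: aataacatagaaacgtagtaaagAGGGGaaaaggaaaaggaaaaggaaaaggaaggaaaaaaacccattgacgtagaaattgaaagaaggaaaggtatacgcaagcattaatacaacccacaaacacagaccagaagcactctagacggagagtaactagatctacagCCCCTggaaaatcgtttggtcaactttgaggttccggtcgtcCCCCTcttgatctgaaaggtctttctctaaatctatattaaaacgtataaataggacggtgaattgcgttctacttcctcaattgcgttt
BTN2, chrVII:772054-772353, plus strand: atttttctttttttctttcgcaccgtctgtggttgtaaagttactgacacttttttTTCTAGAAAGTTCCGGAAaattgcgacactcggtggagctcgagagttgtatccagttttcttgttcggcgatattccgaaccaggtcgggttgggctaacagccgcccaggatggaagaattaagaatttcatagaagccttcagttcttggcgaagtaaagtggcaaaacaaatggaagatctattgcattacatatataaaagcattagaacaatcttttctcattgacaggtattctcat
FUS1, chrIII:71403-71702, plus strand: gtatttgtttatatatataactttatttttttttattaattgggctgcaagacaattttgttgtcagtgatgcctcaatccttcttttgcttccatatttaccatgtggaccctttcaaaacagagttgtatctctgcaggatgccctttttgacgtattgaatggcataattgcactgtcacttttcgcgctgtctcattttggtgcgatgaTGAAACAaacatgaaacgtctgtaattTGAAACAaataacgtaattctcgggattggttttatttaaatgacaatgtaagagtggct
CGR1, chrVII:439663-439962, plus strand: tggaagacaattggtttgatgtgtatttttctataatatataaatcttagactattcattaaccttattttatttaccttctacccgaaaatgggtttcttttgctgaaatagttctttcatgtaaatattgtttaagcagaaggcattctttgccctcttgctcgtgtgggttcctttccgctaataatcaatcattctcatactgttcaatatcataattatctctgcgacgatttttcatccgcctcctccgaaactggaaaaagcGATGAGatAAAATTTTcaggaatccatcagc

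Searched on both strands in the same window of all 5762 protein-coding genes tested, the stress response element was present in 63.5% of the 329 that rose by at least 1 and 14.9% of the 362 that fell by at least 1, against 23.7% of all. PAC was present in 43.1% of those that fell and 14.6% of those that rose, against 18.0% of all, and RRPE in 42.3% and 3.65%, against 9.32% of all. PAC and RRPE stood together in 27.1% of the genes that fell, in 1.22% of those that rose and in 3.87% of all. The pheromone response element was in 6.38% of the genes that rose, 5.8% of those that fell and 7.27% of all. The heat shock element was in 2.13% of the genes that rose (7 genes), 1.93% of those that fell (7 genes) and 1.09% of all. GNGGCTG, the element bound by Crz1, was in 10.9% of the genes that rose, 3.31% of those that fell and 6.27% of all. TATAAA was in 48.9% of the genes that rose, 43.4% of those that fell and 43.8% of all. These shares are descriptions of letters in a window and carry no test.

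Genes of the general stress response made up the top of the ranking. All 39 listed genes tested rose (26.6% of all genes did), 35 of them by at least 1, with a median of 2.35 against −0.03 over all genes. Their share of all counts was 2.07% ± 0.125 at 10 min and 0.437% ± 0.0251 at 0 min (SD, n = 2 each). In the window searched, 36 of the 39 held the stress response element. Genes of trehalose and glycogen metabolism were well represented in the list; named here after their values were seen, the trehalose synthase genes *TSL1*, *TPS2* and *TPS1* rose by 2.90, 2.42 and 1.78, and the glycogen synthesis genes *GSY1*, *GLC3* and *GSY2* by 3.07, 2.87 and 2.35.

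*HSP12*, which encodes a small membrane-associated stress protein, stood at 907.5 and 926.5 CPM at 10 min, against 12.3 and 11.8 CPM at 0 min. This 76.1-fold rise was the largest of the 6206 genes (log2 change 6.25 ± 0.28, adjusted p = 3.5e-11), and the groups lay far apart. *DDR2*, a stress gene first known from its induction by DNA damage, had 59.7 and 54.8 CPM at 10 min, against 1.47 and 1.48 CPM at 0 min (5.24 ± 0.43, adjusted p = 2.3e-08). *CTT1*, the cytosolic catalase, had 131.5 and 123.1 CPM at 10 min, against 16.2 and 15.0 CPM at 0 min (3.03 ± 0.17, adjusted p = 4.1e-10).

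The rest of the 10 highest risers combined stress and carbohydrate genes. *RTC3* rose by 4.47 ± 0.24, *CYC7*, the isoform of cytochrome c made when oxygen is low, by 4.27 ± 0.37, and *HSP26*, a small heat shock protein, by 3.73 ± 0.15. *PGM2*, phosphoglucomutase, had 1009 and 1160 CPM at 10 min, against 80.4 and 97.5 CPM at 0 min, a rise of 3.61 ± 0.18. *SGA1*, a glucoamylase of sporulating cells, rose by 3.58 ± 0.22, *MPC3*, a subunit of the mitochondrial pyruvate carrier, by 3.41 ± 0.31, and *EGO4* by 3.38 ± 0.34. *GAL2*, the galactose permease, which also carries glucose, had 119.6 and 112.7 CPM at 10 min, against 7.25 and 8.71 CPM at 0 min, a rise of 3.87 ± 0.19. The highest adjusted p among these 8 genes was 2.6e-07, and in each the 10 min libraries lay above the 0 min libraries.

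**Figure D2:**
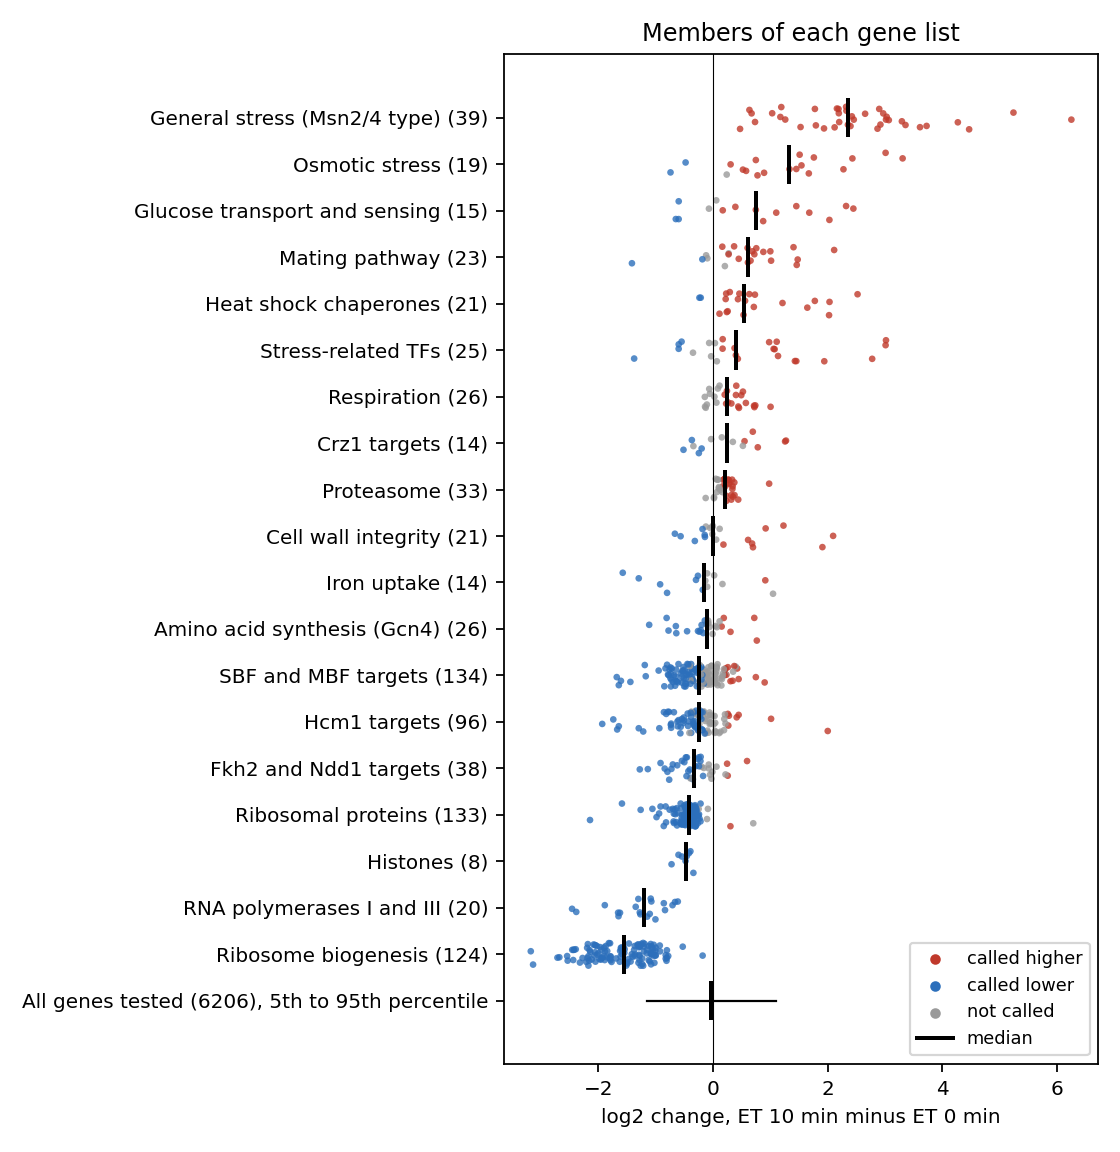
Each point is 1 gene, placed by its log2 change from ET 0 min to ET 10 min (x axis) in the row of its list, with the number of members tested in brackets; black bars are medians, and the bottom row gives the median and the 5th to 95th percentile of all 6206 genes. Every general stress gene lies to the right of 0 and every ribosome biogenesis gene to its left.

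Glycerol genes, the classical output of Hog1, moved in pairs of opposite sign. Of 19 osmotic stress genes tested, 16 rose (84.2%, against 26.6% of all), 2 fell (10.5%, against 31.8% of all) and 1 was not called. The median of the list was 1.33. *GPD1*, glycerol-3-phosphate dehydrogenase, had 1023 and 1063 CPM at 10 min, against 201.8 and 229.7 CPM at 0 min, a rise of 2.28 ± 0.09 (adjusted p = 1.1e-11). *GPP2*, a glycerol-3-phosphatase, had 265.3 and 256.9 CPM at 10 min, against 48.5 and 48.4 CPM at 0 min (2.43 ± 0.09, adjusted p = 5.9e-12).

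Their paralogs went the other way. *GPD2* had 152.5 and 151.9 CPM at 10 min, against 216.4 and 207.5 CPM at 0 min (−0.48 ± 0.06, adjusted p = 1.8e-06), and *GPP1* had 473.4 and 454.3 CPM at 10 min, against 800.3 and 749.2 CPM at 0 min (−0.74 ± 0.06, adjusted p = 1.1e-08). *STL1*, the glycerol importer and a gene that depends strongly on Hog1, was not called, at 16.04 and 15.91 CPM at 10 min, against 12.8 and 14.3 CPM at 0 min (0.24 ± 0.17, adjusted p = 0.24). The list was led by *FMP48*, a mitochondrial protein, which rose by 3.31 ± 0.15, and *USV1*, a zinc finger TF, which rose by 3.01 ± 0.22.

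Mating genes were higher at 10 min, although the labels name no pheromone treatment. Of 23 genes of the pheromone response tested, 17 rose (73.9%, against 26.6% of all), 2 fell (8.7%, against 31.8% of all) and 4 were not called. The median of the list was 0.61. The pheromone response element was in the window of 16 of the 23, against 7.27% of all genes. *FUS1*, needed for cell fusion, had 347.8 and 351.2 CPM at 10 min, against 123.2 and 127.8 CPM at 0 min (1.48 ± 0.07, adjusted p = 4e-11). *AFR1*, which shapes the mating projection, had 191.2 and 196.4 CPM at 10 min, against 44.5 and 44.9 CPM at 0 min (2.11 ± 0.09, adjusted p = 2.5e-11), and *PRM1*, a membrane fusion protein, rose by 1.46 ± 0.09 (adjusted p = 1.5e-09).

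The exception was *FAR1*, which encodes the inhibitor of G1 cyclin-CDK in mating cells. It had 165.0 and 165.6 CPM at 10 min, against 432.9 and 448.0 CPM at 0 min, and fell by 1.41 on the log2 scale (SE 0.08, adjusted p = 1.7e-10). *STE2*, the receptor for α-factor, had 922.6 and 954.1 CPM at 10 min, against 1062 and 1071 CPM at 0 min (−0.18 ± 0.06, adjusted p = 0.019), a call lost without ET 0 min replicate 2 (adjusted p = 0.12) or ET 10 min replicate 1 (adjusted p = 0.17). In the filamentous growth pathway, which shares kinases with mating, 4 of 11 genes rose and 3 fell, against 26.6% and 31.8% of all genes, and the median was 0.02, with *TEC1*, its TF, up by 0.54 ± 0.06 and *HKR1*, an osmosensor, down to 90.5 and 90.7 CPM at 10 min, against 150.0 and 168.5 CPM at 0 min.

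Among phosphatases of the MAPK pathways, *SDP1*, which acts on the cell wall MAPK Slt2, had 40.6 and 44.0 CPM at 10 min, against 6.98 and 5.19 CPM at 0 min, a rise of 2.79 ± 0.19 (adjusted p = 3.1e-09). *PTP3* and *PTC2*, phosphatases that act on Hog1 and related kinases, fell by 0.64 and 0.48 on the log2 scale. *PTC1* and *PTP2*, which also act on Hog1, had changes of 0.28 ± 0.08 (adjusted p = 0.0079) and 0.20 ± 0.07 (adjusted p = 0.026). The call of *PTC1* was lost without ET 0 min replicate 2 (adjusted p = 0.12), and that of *PTP2* without ET 0 min replicate 1 (adjusted p = 0.16) or ET 10 min replicate 2 (adjusted p = 0.16). Of the 7 phosphatase genes listed, 3 rose (42.9%, against 26.6% of all), 2 fell (28.6%, near the 31.8% of all) and 2 were not called. *SLT2* itself was not called, at 89.8 and 103.4 CPM at 10 min, against 100.4 and 93.7 CPM at 0 min (−0.01 ± 0.09, adjusted p = 0.94), and the groups overlapped. Of 21 cell wall integrity genes, 8 rose (38.1%, against 26.6% of all), 6 fell (28.6%, against 31.8% of all) and 7 were not called, and the median was 0.00. The count of 6 was 2 without ET 0 min replicate 1 and 3 without ET 10 min replicate 1 or with raw library totals. The 3 highest, *BAG7*, *PIR3* and *CWP1*, rose by 2.1 ± 0.27, 1.91 ± 0.31 and 1.23 ± 0.08, while *RLM1*, the TF of the pathway, and *CHS3*, a chitin synthase, fell by 0.66 and 0.56.

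With Crz1 absent, 5 of 14 genes listed as its targets rose (35.7%, against 26.6% of all), 4 fell (28.6%, against 31.8% of all) and 5 were not called, and the median was 0.25. The count of 4 was 2 without ET 10 min replicate 1. *PMC1*, the vacuolar calcium pump, had 316.2 and 313.1 CPM at 10 min, against 180.1 and 185.9 CPM at 0 min (0.78 ± 0.06, adjusted p = 1e-08). *CMK2*, a calmodulin-dependent kinase, rose by 1.27 ± 0.09, and *RCN2*, of the family of CN regulators, by 1.26 ± 0.10. *RCN1*, an inhibitor of CN, had 19.4 and 20.6 CPM at 10 min, against 15.1 and 16.5 CPM at 0 min, and *ENA1*, a sodium pump, 8.78 and 10.1 CPM at 10 min, against 11.5 and 12.5 CPM at 0 min. Neither was called (adjusted p = 0.056 for *RCN1* and 0.077 for *ENA1*), although the groups of each did not overlap.

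**Figure D3:**
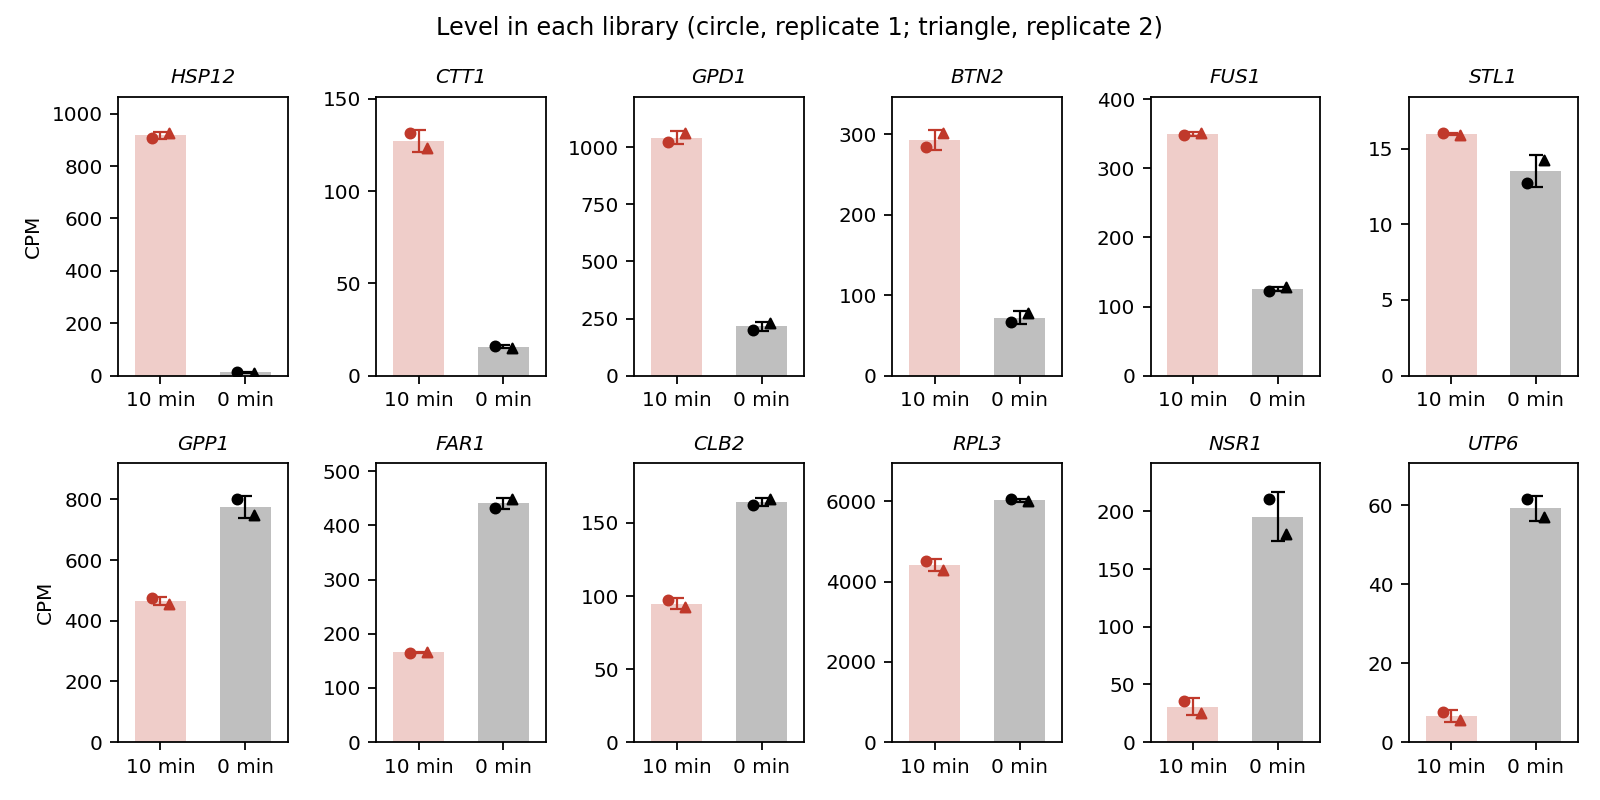
CPM of 12 genes at ET 10 min (red, left) and ET 0 min (black, right); circles are replicate 1, triangles replicate 2, bars the mean and error bars the SD of 2 libraries. The groups are separate in every panel. Each panel has its own axis from 0, on which the gap is widest for *HSP12* and smallest for *STL1*, which was not called.

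Chaperone genes rose as a group but unevenly. Of 21 heat shock genes, 19 rose (90.5%, against 26.6% of all) and 2 fell (9.52%, against 31.8% of all). The count of 2 was 0 without ET 0 min replicate 2 and 1 without ET 10 min replicate 1. The median of the list was 0.53, and its share of all counts was 2.85% ± 0.178 at 10 min and 1.95% ± 0.142 at 0 min (SD, n = 2 each). *HSP42*, a small heat shock protein that gathers misfolded proteins, had 664.8 and 768.3 CPM at 10 min, against 112.7 and 137.2 CPM at 0 min (2.52 ± 0.12, adjusted p = 4.9e-11), and *SSA4*, a stress-induced Hsp70, had 500.1 and 585.2 CPM at 10 min, against 120.9 and 144.4 CPM at 0 min (2.03 ± 0.10, adjusted p = 1.2e-10). *BTN2*, which sequesters misfolded proteins, had 284.0 and 301.9 CPM at 10 min, against 66.5 and 77.5 CPM at 0 min, a rise of 2.03 ± 0.08 (adjusted p = 1.6e-11). Members of the Hsp70 family are close in sequence, so reads may be divided among them.

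The rise in proteasome genes was small and broad. Of 33 tested, 22 rose (66.7%, against 26.6% of all), none fell (31.8% of all did) and the median was 0.21. *RPN4*, the TF that drives proteasome genes, had 410.9 and 391.2 CPM at 10 min, against 198.5 and 208.3 CPM at 0 min, a rise of 0.98 ± 0.06 (adjusted p = 7.6e-10). Its subunit genes rose less, led by *RPT2* at 0.44 ± 0.06 and *RPT3* at 0.38 ± 0.07. The upstream window of *RPN4* holds 1 heat shock element, TTCTAGAAAGTTC, the same 13 letters as in the first of the 2 matches of *BTN2*. GGTGGCAAA, the element bound by Rpn4, was in the windows of 63.6% of the proteasome list, against 1.20% of all genes.

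Genes for TFs of the stress and nutrient responses were themselves among those that moved. Of 25 listed, 16 rose (64%, against 26.6% of all genes), 10 of them by at least 1, and 4 fell (16%, against 31.8% of all). *XBP1*, a repressor of the cell cycle under stress, had 94.5 and 99.7 CPM at 10 min, against 12.5 and 11.4 CPM at 0 min (3.02 ± 0.16, adjusted p = 1.3e-10), and *CIN5*, a TF of salt tolerance, had 137.1 and 115.7 CPM at 10 min, against 18.7 and 18.2 CPM at 0 min (2.78 ± 0.12, adjusted p = 3.5e-11). *MSN4* had 223.3 and 211.6 CPM at 10 min, against 74.9 and 87.5 CPM at 0 min (1.43 ± 0.11, adjusted p = 1.5e-08). Its paralog *MSN2*, named after its value was seen, had a change of −0.03 and was not called.

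Most of the listed glucose genes rose. Of 15 tested, 10 rose (66.7%, against 26.6% of all genes) and 3 fell (20%, below the 31.8% of all). The median of the list was 0.75, and its share of all counts was 0.890% ± 0.00764 at 10 min and 0.527% ± 0.0200 at 0 min (SD, n = 2 each). *HXK1*, a hexokinase, had 2417 and 2649 CPM at 10 min, against 502.0 and 510.2 CPM at 0 min (2.32 ± 0.08, adjusted p = 5.9e-12), and *HXT4*, a glucose transporter, had 1090 and 969.8 CPM at 10 min, against 283.1 and 223.2 CPM at 0 min (2.03 ± 0.08, adjusted p = 1.1e-11). *HXT6* rose by 2.45 ± 0.32, but it is nearly identical to *HXT7* and reads of the pair cannot be assigned with certainty. The 3 genes that fell were regulators, namely *MIG1* and *MIG2*, repressors active in glucose, and *STD1*, a glucose sensing protein, with falls of 0.60, 0.60 and 0.65 on the log2 scale. Respiratory genes were higher by a median of 0.25. Of 26, 16 were called higher (61.5%, against 26.6% of all) and none lower (31.8% of all were). The list was led by *SDH1*, a subunit of succinate dehydrogenase, at 1.00 ± 0.09.

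Ribosome assembly genes fell together. All 124 listed genes tested fell, against 31.8% of all genes, and 112 fell by at least 1. Their median was −1.54, with a range from −3.18 to −0.18, and their share of all counts was 0.714% ± 0.0819 at 10 min and 1.69% ± 0.0916 at 0 min (SD, n = 2 each). PAC was in the window of 81 of the 124 and RRPE in that of 88, with 66 holding both.

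*NSR1*, the yeast nucleolin, had 35.9 and 25.5 CPM at 10 min, against 210.5 and 180.3 CPM at 0 min, and fell by 2.68 on the log2 scale (SE 0.15, adjusted p = 2.2e-10). *UTP6*, a part of the complex that processes the small subunit rRNA, had 7.71 and 5.51 CPM at 10 min, against 61.5 and 57.0 CPM at 0 min (−3.18 ± 0.19, adjusted p = 4.6e-10). *CGR1*, a nucleolar protein of rRNA processing, had 1.34 and 1.14 CPM at 10 min, against 12.3 and 10.2 CPM at 0 min (−3.14 ± 0.29, adjusted p = 1.1e-07). *REI1*, a late assembly factor of the large subunit, fell by 2.71, but its gene overlaps another gene.

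The other genes among the 10 lowest include *BSC1*, which had 1.43 and 1.57 CPM at 10 min, against 31.1 and 22.0 CPM at 0 min, the lowest change of all at −4.10 ± 0.28 (adjusted p = 3.1e-09). *RRN11*, a part of the core factor of RNA polymerase I, fell by 2.98 and *FYV7*, an rRNA processing gene, by 2.79. *TOD6*, a repressor that binds PAC, had 5.02 and 3.50 CPM at 10 min, against 30.2 and 27.6 CPM at 0 min (−2.78 ± 0.21, adjusted p = 7.5e-09). *ATC1* and *NRP1* each fell by 2.70.

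The polymerases that make rRNA and tRNA followed. All 20 genes for subunits of RNA polymerases I and III fell (31.8% of all genes did), 15 of them by at least 1, with a median of −1.21. *RPC19*, a subunit that both enzymes share, had 3.94 and 3.41 CPM at 10 min, against 22.4 and 18.4 CPM at 0 min (−2.46 ± 0.29, adjusted p = 1.5e-06), and *RPA12*, of RNA polymerase I, fell by 2.38.

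Ribosomal protein genes also fell, but by far less at this time. Of 133 tested, 128 fell (96.2%, against 31.8% of all genes), 4 of them by at least 1, and 1 rose (0.752%, against 26.6% of all). The median was −0.41. Their share of all counts was 10.0% ± 0.331 at 10 min and 12.6% ± 0.219 at 0 min (SD, n = 2 each). *RPL3*, a protein of the large subunit, had 4508 and 4295 CPM at 10 min, against 6049 and 6004 CPM at 0 min (−0.45 ± 0.05, adjusted p = 1.2e-06). The largest falls were in single copies of duplicated genes, *RPL22B* (−2.14 ± 0.15), *RPS9A* (−1.59 ± 0.14) and *RPS27A* (−1.26 ± 0.08), and *RPL15B* was the one that rose (0.30 ± 0.08, adjusted p = 0.0048). Reads of near-identical copies may be divided between them. The window of ribosomal protein genes held PAC in 13.5% and RRPE in 9.02%, against 18.0% and 9.32% of all genes.

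Nutrient genes gave mixed counts, to be read against the 26.6% of all genes that rose and the 31.8% that fell. Of 24 sulphur genes, 13 rose (54.2%) and 3 fell (12.5%), and *STR3*, cystathionine beta-lyase, had 132.9 and 117.4 CPM at 10 min, against 22.6 and 23.2 CPM at 0 min (2.45 ± 0.13, adjusted p = 1.2e-10). The strain lacks *MET17*, an enzyme of this pathway, which had 0 counts in every library. Of 14 iron genes, 7 fell (50%) and 1 rose: *FTR1*, the iron permease, had 85.2 and 100.9 CPM at 10 min, against 239.0 and 316.7 CPM at 0 min (−1.57 ± 0.08, adjusted p = 1.4e-10), and its partner *FET3*, the iron oxidase, fell by 0.92. *PHM8*, a phosphatase of low-phosphate cells, rose by 3.32 ± 0.16, while of the 15 genes of the phosphate list 3 rose, 7 were not called and 5 fell (33.3%, near the share of all genes; 3 fell without ET 10 min replicate 1 or with raw library totals), including *PHO84*, the phosphate transporter, which overlaps another feature (−0.81 ± 0.12). Of 26 genes of amino acid synthesis, 12 fell (46.2%) and 5 rose (3 rose without ET 0 min replicate 1 or either ET 10 min library), and *GCN4*, their TF, had 403.3 and 379.6 CPM at 10 min, against 680.3 and 658.5 CPM at 0 min (−0.78 ± 0.06, adjusted p = 5.8e-09).

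Cell cycle genes were lower on balance. In bulk RNA from asynchronous cells, fewer cells in a stage and less RNA per cell cannot be told apart. On lists that the study used for its own analysis of these libraries, 25 of 38 Fkh2 and Ndd1 targets fell (65.8%) and 3 rose (7.89%, median −0.33), 55 of 96 Hcm1 targets fell (57.3%) and 7 rose (7.29%, median −0.24), and 68 of 134 SBF and MBF targets fell (50.7%) and 12 rose (8.96%, median −0.24). Over all genes 31.8% fell and 26.6% rose. The 3 medians lie below −0.03, that of all genes. All 8 histone genes fell, with a median of −0.47, although their copies are near-identical and reads may be divided among them.

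*CDC5*, the polo kinase of mitosis, had 69.6 and 66.2 CPM at 10 min, against 125.2 and 118.0 CPM at 0 min (−0.84 ± 0.07, adjusted p = 4.3e-08). *FKH2*, a TF of the mitotic cluster, had 26.9 and 25.6 CPM at 10 min, against 87.4 and 79.9 CPM at 0 min (−1.67 ± 0.12, adjusted p = 6.7e-09), and *CLN2*, a G1 cyclin, fell by 0.50 (adjusted p = 8.1e-06). Not every member followed: *PCL2*, a cyclin of the kinase Pho85, rose by 0.90 ± 0.13, *HOF1*, a cytokinesis protein, by 0.59 ± 0.09, and *UGP1*, an enzyme of glucan and glycogen synthesis on the Hcm1 list, by 2.0 ± 0.11.

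The FK506 arm gave a second 10 min comparison from libraries that share no sample with the ET arm. There, 3388 genes (54.6%) were called, 1514 higher (24.4%) and 1874 lower (30.2%). Of the 353 genes that rose by at least 1 in ET, 329 (93.2%) were also called higher in FK506 and none lower. Of the 390 that fell by at least 1 in ET, 360 (92.3%) were called lower in FK506 and none higher. Genes that reached a rise of 1 in both arms numbered 262, which is 74.2% of those in ET and 78.4% of those in FK506, and for falls 298, which is 76.4% and 89.8%. The list medians were 2.35 in ET and 2.21 in FK506 for general stress, 0.61 and 0.82 for mating, 0.53 and 0.30 for heat shock, −1.54 and −1.66 for ribosome assembly, and −0.41 and −0.42 for ribosomal proteins. They were −0.33 in ET and −0.09 in FK506 for Fkh2 and Ndd1 targets, −0.24 and −0.15 for Hcm1 targets, −0.24 and −0.16 for SBF and MBF targets, 0.22 and 0.05 for sulphur genes, and −0.10 and −0.24 for amino acid synthesis genes. The differences between these medians were not tested. The difference between the arms passed for 5 of 6206 genes (0.0806%).

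Features outside the comparison are given for genes that moved by at least 1 as descriptions, with no test. In the FK506 0 min libraries, the protein-coding genes that rose in ET had a median of 24.4 CPM and those that fell 53.4 CPM, against 53.6 CPM for all tested. Median gene length was 1120 bases for genes that rose and 1270 bases for genes that fell, against 1220 bases for all. Introns were annotated in 1.82% of the genes that rose and 2.49% of those that fell, against 4.58% of all.

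Later samples of the same time courses show how the 10 min state stands in the response, and since they are set against the same 0 min libraries the values are given side by side only. Some of the 10 min rises had receded by 30 min. *CIN5* stood at 2.78 (10 min), 0.54 (30 min) and −0.86 (60 min) on the log2 scale, *BTN2* at 2.03, −0.94 and −0.40, *HXT4* at 2.03, 0.51 and −0.34, and *GAL2* at 3.87, 2.0 and 0.71. The drop between 10 and 30 min in *GAL2* was 1.87 on the log2 scale (SE 0.11, adjusted p = 3.8e-10).

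Other changes grew. The median of mating genes was 0.61 at 10 min, 1.34 at 30 min and 2.12 at 60 min, and *PRM1* stood at 1.46, 2.19 and 2.83. Ribosomal proteins had medians of −0.41, −1.80 and −3.06 at the same times, and *RPL3* stood at −0.45, −1.90 and −3.37. Ribosome assembly genes were at −1.54, −3.16 and −2.75, and general stress genes at 2.35, 2.70 and 2.52. The median of heat shock genes was 0.53 at 10 min, −0.11 at 30 min and 0.00 at 60 min.

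**Figure D4:**
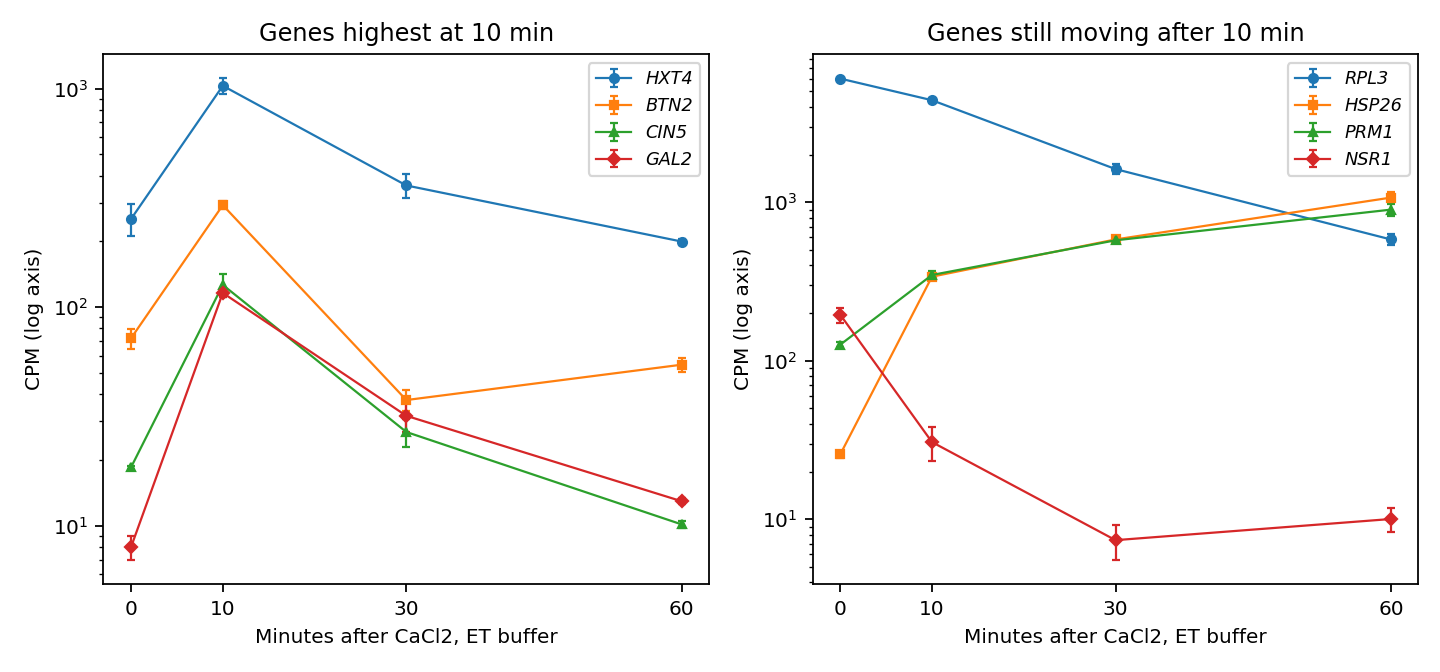
Mean CPM (log axis) of 8 genes at 0, 10, 30 and 60 minutes of CaCl2 in ET buffer, with error bars for the SD of 2 libraries. The 4 genes on the left are highest at 10 min, whereas on the right *RPL3* declines and *HSP26* and *PRM1* climb at every step.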

How the data were processed

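Strand-specific, rRNA-depleted libraries of 16 yeast samples were sequenced by the authors as single-end reads, and the analysis started from their deposited counts, a table of raw whole-number counts per gene. Per the labels and the submitters' processing notes, reads were aligned with TopHat2 (version 2.1.1) to sacCer3 (R64-1-1). Those notes name featureCounts from Subread (version 1.5.3) for counting, whereas the study's methods name HTSeq, and whether counting used strand is not given in the sources used here. Groups and replicate numbers came from the sample titles.

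Features with enough counts were kept with edgeR's filterByExpr (minimum count 10), scaled by TMM (edgeR version 4.0.16) and fitted with voom in limma (version 3.58.1, R version 4.3.3) on all 16 libraries, with a group term, a replicate term and a correlation estimated within each time course (−0.117). The study's methods name a batch term without defining it and a correlation within condition and genotype; here the replicate number was assumed to be the batch, and the time course was used for the correlation. Adjusted p-values are Benjamini-Hochberg over 6206 features, at 0.05. Differences between replicates of ET 0 min and ET 10 min correlated at 0.12 across genes. The study describes duplicate time courses, without stating that samples with the same replicate number came from a shared culture. Replicates of a group differed by more than sampling noise (chi-square per gene 5.51 at 0 min and 5.69 at 10 min). The p-values measure the spread between these samples. An exact permutation test of 2 against 2 could not reach 0.05 and was not used. Alternatives included edgeR's quasi-likelihood test and DESeq2 (version 1.42.0), other scalings and filters, and leaving out each library.

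The subject and the gene lists were chosen with earlier results of these data known. Named genes were the 10 highest and 10 lowest called changes, up to 3 of each direction in each list, genes that differed between arms, and a set chosen for their roles, where the first and second kinds needed non-overlapping libraries and a mean of at least 10 counts. Of the 7126 features, 6160 were matched to RefSeq R64, and upstream windows were cut from that genome. Figures were drawn with matplotlib (version 3.10.9).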

Additional observations from a re-analysis of the deposited data

Results flagged for a closer look

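Between the ET and FK506 arms, 5 genes had a 10 min change that differed by a test of the difference itself (a contrast in the limma fit across all genes). The B-type cyclin gene *CLB2* had 97.3 and 92.3 CPM at ET 10 min, against 162.5 and 166.2 CPM at ET 0 min, and averaged 151.2 CPM at FK506 10 min, against 161.4 CPM at FK506 0 min. The difference in its log2 change was −0.70 (adjusted p = 0.0063). *CLB1*, its paralog, differed by −0.87 (adjusted p = 0.037), *SUR7*, of the plasma membrane eisosome, by −0.57 (adjusted p = 0.015), and *ZEO1*, a regulator of the cell wall pathway, by −0.78 (adjusted p = 0.036). *BTN2* was the one gene with a higher change in ET, by 0.68 (adjusted p = 0.036), at 284.0 and 301.9 CPM at ET 10 min, against 66.5 and 77.5 CPM at ET 0 min, and a mean of 226.0 CPM at FK506 10 min, against 89.3 CPM at FK506 0 min.

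Each of these calls rested on single libraries, while every difference kept its sign. *CLB2* lost its call without ET 0 min replicate 2 (adjusted p = 0.076), ET 10 min replicate 2 (adjusted p = 0.056) or FK506 0 min replicate 2 (adjusted p = 0.069). *SUR7* lost it without ET 0 min replicate 2, either ET 10 min library, FK506 0 min replicate 2 or FK506 10 min replicate 1 (adjusted p of 0.07 to 0.14), and *CLB1* without replicate 2 of either ET time or any of the 4 FK506 libraries (0.11 to 0.21). *ZEO1* lost it without any of the 4 ET libraries, FK506 0 min replicate 2 or FK506 10 min replicate 1 (0.14 to 0.21), and *BTN2* without any of the 8 libraries except FK506 10 min replicate 1 (0.063 to 0.25). All 5 kept their call with edgeR and with no replicate term.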

How the results depend on the processing

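Counts of genes that rose and fell stayed within 1.5 times of 1652 and 1976 under every alternative in test, design, scaling and filter, and none of the 3628 called genes changed direction in any of them. Requiring a change of at least 1 left 353 higher and 390 lower. With a filter of at least 10 counts in every library, these were 314 and 359. With raw library totals 1937 rose and 1679 fell, and the median over all genes moved to 0.04. With no replicate block 1665 rose and 1970 fell, and 742 of the 743 genes with a change of at least 1 kept their call. Leaving out each library in turn gave 1296 to 1466 higher and 1685 to 1800 lower. For the difference between arms, 1 gene was higher and 4 were lower; edgeR called 3 and 5, the fit with no replicate block 1 and 4, and leaving out each library 0 to 2 and 0 to 3. *SLT2*, not called in any setting, had a positive change with DESeq2 (0.003), the 4 libraries alone (0.036), raw totals (0.06) and no filter (0.018), and ranged between −0.15 and 0.128 when each library was left out. *RCN1* passed under 7 alternatives, with an adjusted p of 0.021 to 0.05. Of the counts per list, 35 of 810 moved by over 1.5 times, in lists where few genes were called that way. The cause was not tested for any of these. With 2 replicates a group, 53 genes with a fitted change of at least 1 were not called.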

Other observations

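Genes of meiosis, which haploid cells do not normally use, were low but measurable. Of 9 tested, 5 rose (55.6%, against 26.6% of all genes) and none fell, with a median of 0.49, and they summed to 0.0145% and 0.0137% of counts at 10 min, against 0.00921% and 0.00944% at 0 min. *DMC1*, a meiotic recombinase, had 17.8 and 20.4 CPM at 10 min, against 9.27 and 7.69 CPM at 0 min (1.16 ± 0.17, adjusted p = 1.3e-05), and *IME2*, a meiotic kinase, had 19.99 and 21.24 CPM at 10 min, against 9.09 and 10.47 CPM at 0 min (1.08 ± 0.18, adjusted p = 6.4e-05).

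Of 80 small non-coding RNAs tested, 30 fell (37.5%, near the 31.8% of all genes) and 1 rose (1.25%, against 26.6% of all), with a median of −0.42. *SCR1*, the RNA component of the particle that targets secretory proteins, was the one that rose, by 0.13 (adjusted p = 0.047), a call lost without ET 0 min replicate 1 (adjusted p = 0.34) or ET 10 min replicate 2 (adjusted p = 0.36) and with edgeR (0.062), DESeq2 (0.071) and no replicate block (0.24).

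A few features were near absent at 0 min. Named after their values were seen, *PFS1* had 18 and 16 counts at 10 min, against 2 and 1 at 0 min, and *YLR012C* had 12 and 17 counts at 10 min, against 1 and 0 at 0 min.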
